A study of Mus musculus with 3 samples.

Results

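A set of 9 genes of alarmin, neutrophil granule and acute-phase proteins was described in mouse peritoneal macrophages: S100a8, S100a9, Lcn2, Camp, Mmp8, Saa1, Saa3, Lrg1 and Prok2. They were chosen by symbol from 20574 gene symbols, with earlier results of the same libraries known, and 8 of the 9 had a row in the tables; Saa3 was not analysed here. Their values in the 3 libraries are therefore a description and carry no test. RNA came from primary peritoneal macrophages in DMEM, with 1 library each for macrophages kept 5 h with apoptotic cells at 5 apoptotic cells per macrophage, macrophages given 100 ng/ml LPS for 5 h, and macrophages with no coculture. The sample titles mark every library as WT, LPS is the outer-membrane lipid of Gram-negative bacteria that macrophages sense through TLR4, and apoptotic cells not taken up were rinsed off before RNA extraction. The labels give no time for the untreated library, no mouse strain and no source of the apoptotic cells. Treatment, time and handling therefore cannot be told apart in a comparison with the untreated library.

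S100a8 and S100a9 encode calcium-binding proteins that pair to form calprotectin, which binds zinc and manganese and, once outside the cell, acts as an alarmin on TLR4 and RAGE. Lcn2 encodes a lipocalin that captures bacterial siderophores, Camp the cathelicidin antimicrobial peptide precursor and Mmp8 the neutrophil collagenase. All of these are stored in or abundant in neutrophils. Saa1 and Saa3 encode serum amyloid A proteins of the acute-phase response, which liver and macrophages make on inflammatory stimulation. Lrg1 encodes a leucine-rich glycoprotein of the acute phase that modifies TGF-beta signalling through endoglin. Prok2 encodes prokineticin 2, a secreted myeloid factor that acts on the receptors Prokr1 and Prokr2.

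Values are FPKM, which scale the fragments of a gene by transcript length and by the 1000000s of fragments mapped, so levels can be set beside each other between genes. A listed 0 in these tables can be a failed estimate: Eef1a1, a translation elongation factor gene that every cell uses, had a listed 0 in both treated libraries and 5641 FPKM untreated. A 0 is given as listed, and ratios were formed only between values above 0. Depth was not stated. The steps between the smallest values gave approximate read equivalents. For the measured genes these are printed beside low values, with intervals that cover counting error only. For most other genes they are not printed, and low values there can rest on a few reads. The 0.611 FPKM of Ngp untreated, for example, stands for about 2 reads. With 1 library per condition there is no spread between replicates, so every difference below is between libraries.

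The Saa genes are the pair of the set whose sequences bear on the values, because Saa1 and its neighbour Saa2 are near copies. In mm10, Saa1 lies on chromosome 7 from 46740497 to 46742980 on the minus strand and Saa2 from 46751790 to 46754313 on the plus strand, 8.81 kb apart and pointing away from each other. Their first annotated coding transcripts were 93.9% identical, and 14.8% of the 50-base windows of the Saa1 transcript also occurred in a transcript of Saa2 or Saa3. None of the 50-base windows of the other 7 measured genes was found in a transcript of another gene. Reads may therefore have been divided between Saa1 and Saa2, while S100a8, S100a9, Lcn2, Camp, Mmp8, Lrg1 and Prok2 had no such copy in GENCODE M21. The 200 bases that begin 250 bases before the RefSeq start of each Saa gene were 93.5% identical (RefSeq, GRCm38.p6). They are shown, 5′ to 3′ on the gene's strand, with the match to TTGCNNAA in capitals, a spelling of the site bound by C/EBP factors. Saa1 covers chr7:46743031-46743230 on the minus strand and Saa2 chr7:46751583-46751782 on the plus strand.
Saa1: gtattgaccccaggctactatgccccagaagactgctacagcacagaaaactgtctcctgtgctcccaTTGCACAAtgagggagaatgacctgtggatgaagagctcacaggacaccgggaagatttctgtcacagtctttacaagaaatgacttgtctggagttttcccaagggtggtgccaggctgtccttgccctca
Saa2: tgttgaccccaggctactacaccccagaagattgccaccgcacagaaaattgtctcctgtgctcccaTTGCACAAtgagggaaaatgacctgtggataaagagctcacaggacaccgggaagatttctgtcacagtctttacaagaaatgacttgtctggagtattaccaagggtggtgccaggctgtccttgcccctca

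Mmp8 and Prok2 are shown as well, because they were the 2 measured genes that were at least 2-fold above the untreated library in a single treated library on the log2(FPKM + 1) scale. The 250 bases before the Mmp8 start are chr9:7558179-7558428 on the plus strand, and those before the Prok2 start are chr6:99726393-99726642 on the minus strand.
Mmp8: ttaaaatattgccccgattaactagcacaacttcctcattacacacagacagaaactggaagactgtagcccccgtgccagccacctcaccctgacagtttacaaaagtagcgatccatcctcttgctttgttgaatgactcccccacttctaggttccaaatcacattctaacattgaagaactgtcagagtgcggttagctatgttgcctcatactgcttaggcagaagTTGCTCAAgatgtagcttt
Prok2: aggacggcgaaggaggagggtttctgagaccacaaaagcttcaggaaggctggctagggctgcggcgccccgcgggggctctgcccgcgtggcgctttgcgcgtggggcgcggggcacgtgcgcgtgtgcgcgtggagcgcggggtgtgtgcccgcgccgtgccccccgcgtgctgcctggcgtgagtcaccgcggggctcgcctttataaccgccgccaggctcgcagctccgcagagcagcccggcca
Searched on both strands in the 250 bases before the RefSeq start, TTGCNNAA was present before S100a9, Lcn2, Mmp8, Saa1 and Saa2, that is 5 of 9 promoters, and in 9.56% of 32851 RefSeq promoters. In Mmp8 the match began 19 bases before the start, in Saa1 182, in Saa2 183, in Lcn2 216 and in S100a9 236. TATAAA was found before S100a8 and Prok2 and in 12.4% of all promoters. The NF-kB consensus had no match in the 9 windows and occurred in 7.25% of all promoters. No promoter held more than 1 of these matches, so none overlapped. RefSeq starts can differ from the mm10 gene spans of GENCODE M21 given in this report. The Lcn2 window lies wholly inside its gene span, and those of S100a8, Camp, Saa2 and Lrg1 lie partly inside theirs. The Lcn2 match to TTGCNNAA and the S100a8 match to TATAAA fall within these spans. A match describes letters in the window and shows no binding.

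**Figure D1:**
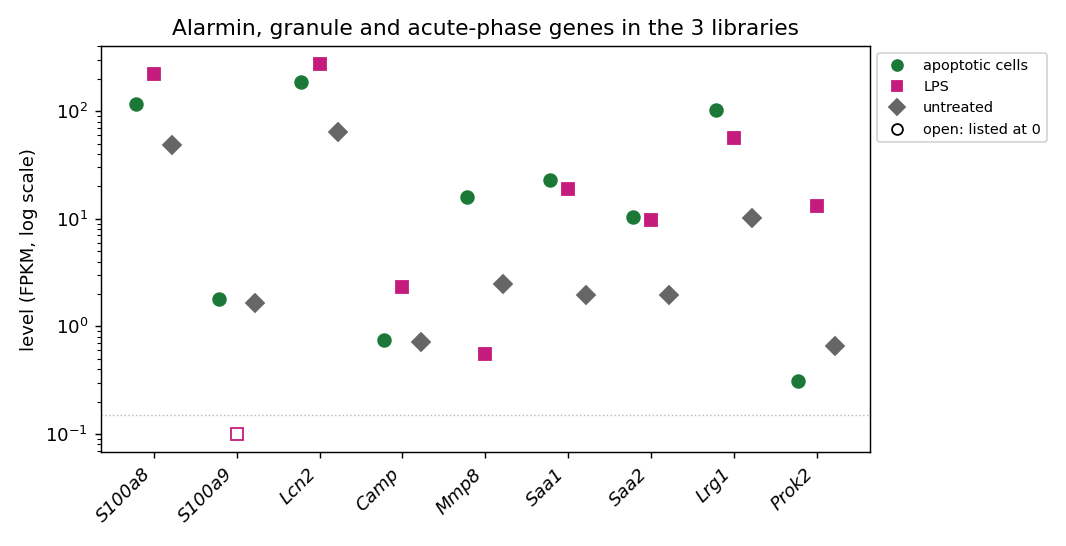
Level in FPKM (log axis) of the 8 measured genes and Saa2 in the libraries with apoptotic cells, with LPS and untreated; filled points are single values and open points mark a listed 0. S100a8, Lcn2, Saa1, Saa2 and Lrg1 were higher in both treated libraries than in the untreated one, Mmp8 was highest with apoptotic cells at 15.98 FPKM, and Prok2 was highest with LPS at 13.3 FPKM.

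Among the alarmins, S100a8 had 116 FPKM with apoptotic cells, 222 with LPS and 48.1 untreated. Its order was LPS, then apoptotic cells, then untreated. The ratio of plain FPKM was 2.42 for apoptotic cells over untreated (95% counting interval 1.66 to 3.58) and 4.61 for LPS over untreated (3.26 to 6.66). With apoptotic cells it was 0.525 of the LPS level (0.405 to 0.678). Among the genes above 0 in its library, S100a8 ranked 273 from the top with apoptotic cells, 136 with LPS and 564 untreated. S100a8 lies on chromosome 3 from 90668978 to 90670035, and S100a9 lies 22.6 kb further along, from 90692632 to 90695721.

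S100a9, whose product pairs with that of S100a8, had 1.79 FPKM with apoptotic cells, was listed at 0 with LPS and had 1.65 FPKM untreated. These levels correspond to about 2 reads in each of the libraries with apoptotic cells and without treatment. S100a8 stood 65-fold above S100a9 with apoptotic cells and 29.1-fold above it untreated, per length. The ratio of S100a9 between those libraries was 1.08, with a counting interval of 0.0556 to 23.3, so no difference was detectable at this depth. In both libraries where S100a9 was above 0 it lay far below S100a8, and the listed 0 with LPS does not show that S100a9 was absent.

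Of the granule genes, Lcn2 was the most abundant, at 187 FPKM with apoptotic cells, 272 with LPS and 64.1 untreated. It was the highest of the 8 genes in every library, and its order over the libraries was that of S100a8. The ratio over untreated was 2.92 with apoptotic cells (counting interval 2.41 to 3.56) and 4.25 with LPS (3.53 to 5.14). Apoptotic cells over LPS gave 0.689 (0.605 to 0.784). Lcn2 lies on chromosome 2 from 32384633 to 32388252.

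Camp was low in every library, at 0.752 FPKM with apoptotic cells, 2.33 with LPS and 0.713 untreated. About 1, 4 and 1 reads stand behind these levels on its single coding transcript of 758 bases. LPS over untreated was 3.27 with a counting interval of 0.344 to 92.0, which spans 1, so the higher LPS value was not detectable as a difference at this depth. Camp lies on chromosome 9 from 109847379 to 109849617.

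Mmp8 went the other way in the treated libraries, at 15.98 FPKM with apoptotic cells, 0.548 with LPS and 2.48 untreated. About 113, 4 and 18 reads correspond to these values on its transcript of 2425 bases. Apoptotic cells were highest and LPS lowest, with the untreated library between them. The ratio of apoptotic cells over untreated was 6.44 (counting interval 3.89 to 11.3), and that of LPS over untreated was 0.221 (0.0487 to 0.708). Apoptotic cells over LPS gave 29.2 (10.5 to 122). On the log2(FPKM + 1) scale LPS over untreated was -1.17, and it fell short of a 2-fold difference with a pseudocount of 5 (-0.43) and with median-of-ratios scaling (-0.84). Mmp8 lies on chromosome 9 from 7558456 to 7568485.

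Of the acute-phase genes, Saa1 had 22.9 FPKM with apoptotic cells, 18.9 with LPS and 1.95 untreated. Both treated libraries were close to each other and far above the untreated one, whose value stands for about 2 reads. Apoptotic cells over untreated gave 11.7 (counting interval 3.29 to 76.8) and LPS over untreated 9.66 (2.62 to 64.3). Apoptotic cells over LPS gave 1.22 (0.668 to 2.25), an interval that spans 1. Saa2, the near copy, had 10.3 FPKM with apoptotic cells, 9.78 with LPS and 1.94 untreated. Because reads may be shared, the sum of both genes was also taken, and it was 33.3 FPKM with apoptotic cells, 28.6 with LPS and 3.89 untreated. Over untreated, Saa2 gave 5.34 with apoptotic cells (counting interval 1.42 to 32.6) and 5.05 with LPS (1.3 to 31.4). Saa1 stood at 2.22, 1.93 and 1.01 times Saa2 in the same 3 libraries. The untreated value rests on about 2 reads of Saa1 and 2 to 3 of Saa2, so it was not resolved at this depth.

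Lrg1 had 102 FPKM with apoptotic cells, 56.1 with LPS and 10.1 untreated. Here apoptotic cells gave the highest value, whereas S100a8 and Lcn2 were highest with LPS. The ratio over untreated was 10.1 with apoptotic cells (counting interval 7.25 to 14.4) and 5.55 with LPS (3.91 to 8.04), and apoptotic cells over LPS gave 1.82 (1.53 to 2.17). Its log2 ratio for apoptotic cells over untreated, formed for 3369 genes, ranked 7 from the highest. Lrg1 lies on chromosome 17 from 56119678 to 56122001.

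Prok2 had 0.313 FPKM with apoptotic cells, 13.3 with LPS and 0.662 untreated. Only the LPS library held more than a few reads: on the longest of its 4 coding transcripts the values correspond to about 1, 47 and 3 reads. On the shortest they correspond to about 0.4, 14.3 and 0.8 reads. The intervals given here use the longest and would be wider on the shortest. LPS over untreated gave 20.1 (counting interval 6.07 to 117) and apoptotic cells over LPS 0.0236 (0.00107 to 0.12). Apoptotic cells over untreated gave 0.474 with an interval of 0.0156 to 5.89, so those libraries could not be told apart at this depth. Its log2 ratio for LPS over untreated ranked 8 from the highest of 3421 genes. Prok2 lies on chromosome 6 from 99711299 to 99726392.

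**Figure D2:**
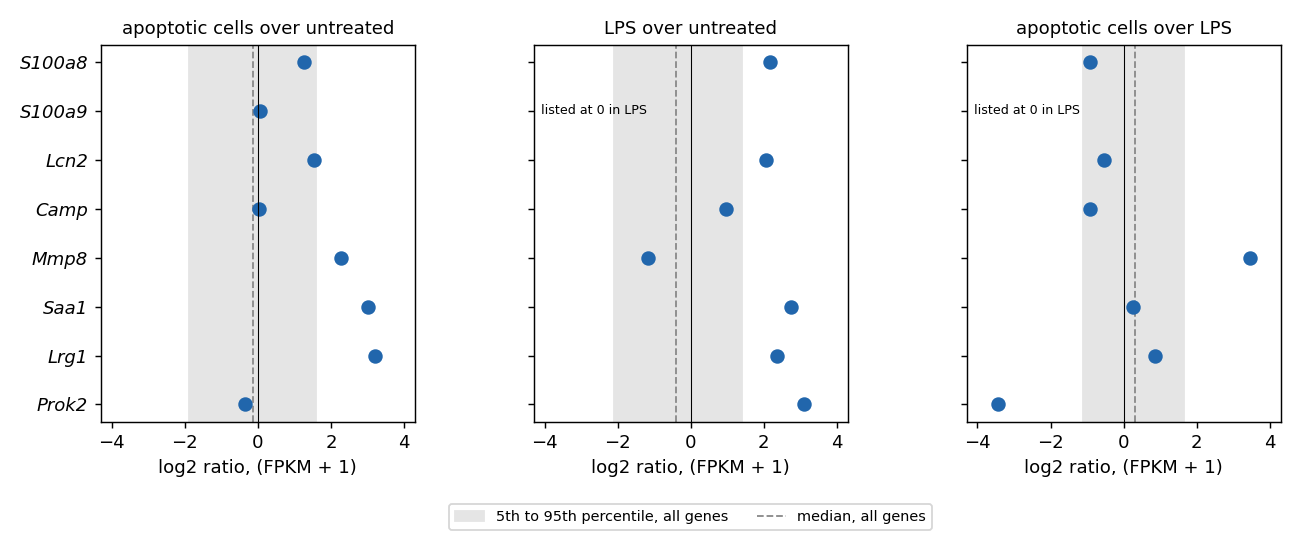
Log2 ratio of (FPKM + 1) for each measured gene in the 3 comparisons; points are single ratios, the grey band is the 5th to 95th percentile of all genes with a ratio and the dashed line their median. Saa1 and Lrg1 lie right of the band in both comparisons with the untreated library, and Mmp8 lies right of it for apoptotic cells over untreated and over LPS. S100a8, Lcn2 and Prok2 lie right of it for LPS over untreated, and Prok2 lies left of it for apoptotic cells over LPS.

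Counted at 2-fold on the log2(FPKM + 1) scale, 5 of the 8 genes were higher with apoptotic cells than untreated (Lrg1, Saa1, Mmp8, Lcn2 and S100a8) and 0 were lower. Of all 3369 genes with a ratio in that comparison, 12.4% were higher by 2-fold or more and 16.4% lower. The log2 ratios were 3.21 for Lrg1, 3.02 for Saa1, 2.29 for Mmp8, 1.53 for Lcn2 and 1.26 for S100a8, while S100a9 (0.07), Camp (0.03) and Prok2 (-0.34) lay under 2-fold. The median of the 8 was 1.40, beside -0.13 over all genes.

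With LPS, 7 of the genes had a ratio over untreated: 5 were at least 2-fold higher (Prok2, Saa1, Lrg1, S100a8 and Lcn2), and 1, Mmp8, was at least 2-fold lower. Of all 3421 genes, 8.51% were higher by 2-fold or more and 26.2% lower. The log2 ratios were 3.10 for Prok2, 2.75 for Saa1, 2.36 for Lrg1, 2.18 for S100a8, 2.07 for Lcn2 and 0.96 for Camp. The median of the 7 was 2.18, beside -0.40 over all genes. Both comparisons share the untreated library.

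Between the treated libraries, 1 of 7 genes, Mmp8, was at least 2-fold higher with apoptotic cells than with LPS (log2 ratio 3.46), and 1, Prok2, was at least 2-fold lower (-3.44). Of all 4599 genes, 15.7% were higher by 2-fold or more and 5.54% lower. The other ratios were 0.85 for Lrg1, 0.27 for Saa1, -0.54 for Lcn2, -0.92 for S100a8 and -0.93 for Camp, and that of Saa1 changed sign with median-of-ratios scaling (-0.12). The genes were chosen with these contrasts in view, so nothing is read from their counts against the share over all genes.

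Scaling did not move all genes of a comparison alike, because 1 was added to the FPKM after scaling. For LPS over untreated, rescaling to a sum of 1000000 took Camp from 0.96 to 1.47 and Mmp8 from -1.17 to -1.84. Lcn2 went from 2.07 to 2.08. Median-of-ratios scaling moved the median of all genes by 0.18 for apoptotic cells over untreated, by 0.51 for LPS over untreated and by -0.33 for apoptotic cells over LPS, and upper-quartile scaling moved that of LPS over untreated by 0.14. With median-of-ratios scaling, 55.7%, 59% and 48.6% of the genes past 2-fold were higher in the 3 comparisons, against 43%, 24.5% and 73.9% on the deposited scale. Relative to the median of all genes, LPS over untreated was 3.51 for Prok2, 3.15 for Saa1, 2.76 for Lrg1, 2.59 for S100a8, 2.47 for Lcn2, 1.36 for Camp and -0.76 for Mmp8.

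The measured genes can also be set beside the genes whose levels were most like theirs over the 3 libraries. Likeness was the Euclidean distance between log2(FPKM + 1) profiles, each centred on its own mean, among 1768 or 1769 genes above 0 in every library and with a mean of at least 5 FPKM. The profile nearest to Lrg1 was that of the complement receptor gene C5ar1, at a distance of 0.044, with 308 FPKM with apoptotic cells, 175 with LPS and 33.8 untreated. Nearest to S100a8 was Myadm (0.066), at 112, 219 and 49.2 FPKM with apoptotic cells, with LPS and untreated, and nearest to Lcn2 was Fam174a (0.072). Saa1 was nearest to the apolipoprotein gene Apoc1 (0.195), Mmp8 to the G-protein regulator gene Rgs18 (0.209), Prok2 to the arginase gene Arg2 (0.130) and Camp to Cklf (0.013). The second nearest gene to Lrg1 was S100a1 (0.229), of the S100 family. With 3 values per profile, near matches are easily had.

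Genes related to these were counted in 6 lists. Over all genes with a ratio, 12.4% were at least 2-fold higher and 16.4% lower for apoptotic cells over untreated. For LPS over untreated these shares were 8.51% and 26.2%. The lists hold few genes with a ratio, so nothing is read from their counts against these shares. Of 12 other S100 genes, 4 had a ratio for apoptotic cells over untreated: 1 was at least 2-fold higher and 1 lower. For LPS over untreated, 1 of 5 was higher and 3 were lower. S100a1 was the higher gene in both, at 44.9 FPKM with apoptotic cells, 26.1 with LPS and 5.16 untreated. S100a11 was lower in both, at 83.2, 81.5 and 240.1 FPKM with apoptotic cells, with LPS and untreated, and S100a6 stood at 45.4, 10.8 and 85.7 FPKM in the same order. S100a10, which partners annexin A2, had 199 FPKM with apoptotic cells, 53.6 with LPS and 117 untreated. S100a4 was listed at 0 with apoptotic cells, and S100a13 was above 0 with LPS alone, at 23.7 FPKM.

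Other alarmin genes lay under 2-fold of the untreated library where a ratio existed. Hmgb1, which encodes a chromatin protein released by damaged cells, had 106 FPKM with apoptotic cells, 68.7 with LPS and 108 untreated. Hmgn1 had 62.8, 30.9 and 55.6 FPKM in the same order. Il1a, encoding interleukin 1 alpha, was above 0 with apoptotic cells alone, at 14.2 FPKM.

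Of 27 other granule genes, 21 had a row and 6 of those were listed at 0 in every library. For apoptotic cells over untreated, 3 of 4 with a ratio were at least 2-fold higher and 0 lower, and for LPS over untreated 4 of 5 were higher and 0 lower. Pglyrp1, which encodes a peptidoglycan-binding bactericidal protein, had 42.5 FPKM with apoptotic cells, 23.6 with LPS and 5.76 untreated. Chi3l3, a chitinase-like gene that macrophages also express, had 20.1, 8.94 and 3.77 FPKM, and the gelatinase gene Mmp9 had 5.73, 7.22 and 2.15 FPKM in that order. Of the granule genes most particular to neutrophil precursors, Elane was listed at 0 in every library, and Mpo and Ctsg were listed at 0 in both treated libraries and had 1.11 and 0.737 FPKM untreated. Prtn3 had 1.85 FPKM with apoptotic cells, 0.958 with LPS and 0.453 untreated. Ltf was above 0 with apoptotic cells alone (0.343 FPKM), the lysozyme gene Lyz1 untreated alone (349 FPKM) and the cystatin C gene Cst3 with LPS alone (2138 FPKM). Ngp had 2.27 FPKM with apoptotic cells, was listed at 0 with LPS and had 0.611 FPKM untreated.

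Of 21 other acute-phase genes, 18 had a row and 8 of those were listed at 0 in every library, among them the mainly hepatic genes Crp, Apcs, Fga, Fgb and Fgg. For LPS over untreated, 4 of 6 with a ratio were at least 2-fold higher and 0 lower. These were Hp, which encodes the haemoglobin-binding protein haptoglobin (199 FPKM with LPS and 42.8 FPKM untreated), Ptx3 (7.81 and 0.940 FPKM), Cp (8.36 and 2.26 FPKM) and Saa2. For apoptotic cells over untreated 2 had a ratio: Saa2 was higher, and Orm1, which encodes orosomucoid, had 9.31 against 4.34 FPKM (log2 ratio 0.95). Hp, Ptx3, Cp and C3 were listed at 0 with apoptotic cells, so their ratio for that treatment was not formed.

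**Figure D3:**
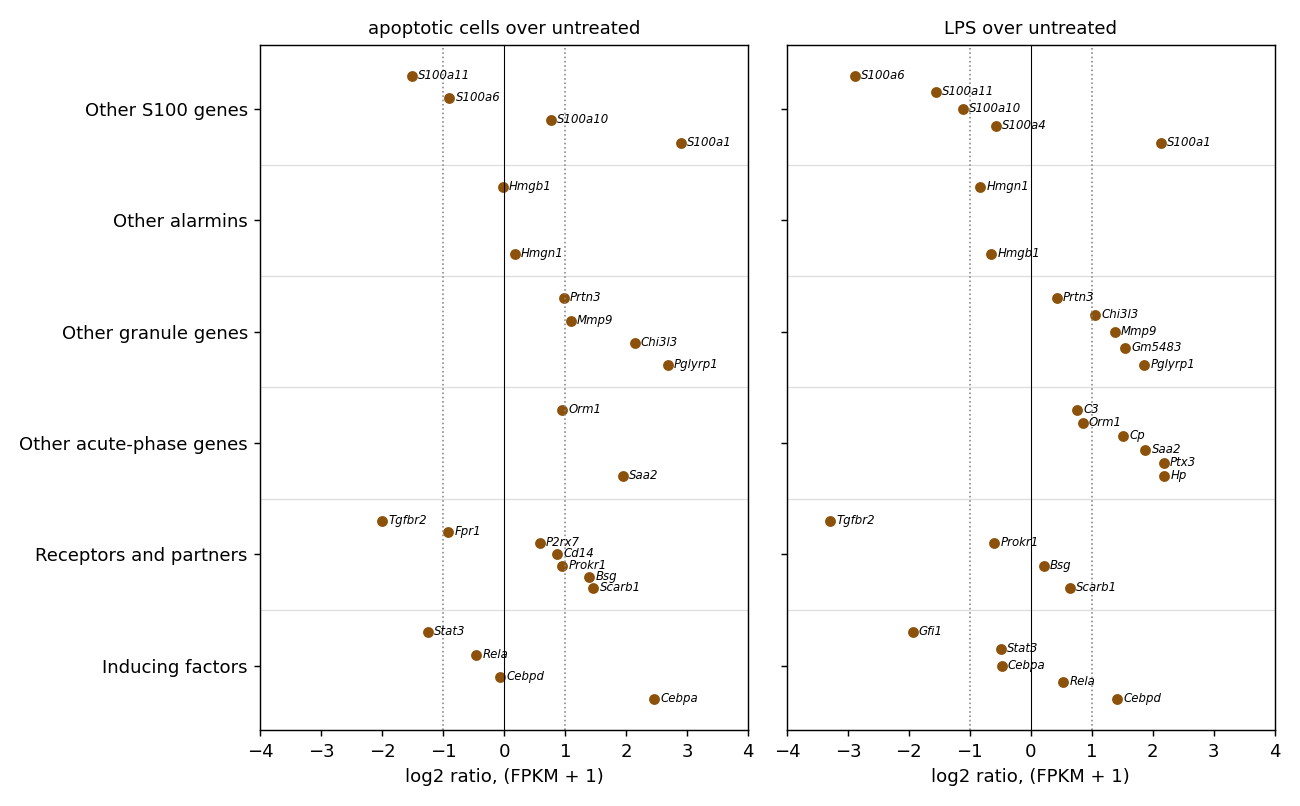
Log2 ratio of (FPKM + 1) for the genes of the 6 lists that were above 0 in both libraries, for apoptotic cells over untreated and LPS over untreated; each point is a gene and the dotted lines mark 2-fold. The other granule and acute-phase genes lie right of 0 in both panels, while the S100 genes, receptors and inducing factors lie on both sides.

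Receptors and partners of these proteins went both ways. With apoptotic cells over untreated, 2 of 7 with a ratio were at least 2-fold higher and 1 lower, and for LPS over untreated 0 of 4 were higher and 1 lower. Tgfbr2, a receptor of the TGF-beta signalling that the product of Lrg1 modifies, was the lower gene in both, at 39.0 FPKM with apoptotic cells, 15.3 with LPS and 159 untreated. Eng, which encodes endoglin, was listed at 0 in both treated libraries and had 1.88 FPKM untreated. Bsg, which encodes basigin, a receptor of S100A9 in human cells, had 260.1 FPKM with apoptotic cells, 114 with LPS and 98.4 untreated. Scarb1, a lipoprotein receptor that also binds serum amyloid A, had 23.2, 12.7 and 7.77 FPKM in that order. Fpr2, a formyl peptide receptor for serum amyloid A and cathelicidin peptides, was listed at 0 in both treated libraries and had 29.9 FPKM untreated. The prokineticin receptor gene Prokr1 had 3.15 FPKM with apoptotic cells, 0.417 with LPS and 1.15 untreated, while Prokr2 was listed at 0 throughout. Ager, which encodes RAGE, was likewise listed at 0 with both treatments and had 0.231 FPKM untreated.

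Of 17 genes for factors known to induce such proteins, 13 had a row. Set against untreated, apoptotic cells gave 4 ratios, of which 1 was at least 2-fold higher and 1 lower. Cebpa was the higher gene, at 206 FPKM with apoptotic cells, 26.0 with LPS and 36.6 untreated, and Stat3 was the lower one, at 28.4, 48.5 and 68.7 FPKM. For LPS over untreated, 1 of 5 was higher, Cebpd at 6.15 against 1.67 FPKM, and 1 lower, Gfi1 at 1.00 against 6.70 FPKM. Nfkbiz, which encodes an NF-kB cofactor needed for Lcn2 induction in mouse macrophages, had 0.681 FPKM with apoptotic cells, 30.3 with LPS and was listed at 0 untreated. Il1b had 11.2 FPKM with apoptotic cells, 11441 with LPS and was listed at 0 untreated. Csf3, the granulocyte growth factor gene, and Cebpb were above 0 in the untreated library alone, at 80.2 and 89.3 FPKM.

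List medians give the same values in short. For apoptotic cells over untreated they were 1.62 for other granule genes, 1.45 for other acute-phase genes, 0.87 for receptors, 0.07 for other alarmins, -0.07 for other S100 genes and -0.26 for inducing factors, beside -0.13 over all genes. With LPS over untreated they were 1.70 for other acute-phase genes, 1.38 for other granule genes, -0.20 for receptors, -0.48 for inducing factors, -0.74 for other alarmins and -1.11 for other S100 genes, beside -0.40 over all genes. Median-of-ratios scaling changed the sign of the S100 median for apoptotic cells (0.14) and of the receptor (0.24) and inducing factor (0.13) medians for LPS. The granule and acute-phase medians over untreated stayed above 0 in each of the 3 scalings. They rest on few genes: 4 and 2 for apoptotic cells, 5 and 6 for LPS. Genes listed at 0 in either library had no ratio. With apoptotic cells, 15 of 21 granule rows and 14 of 18 acute-phase rows were listed at 0. With LPS these were 13 and 8, and untreated 9 and 9. Between the treated libraries, apoptotic cells over LPS, 3 of 5 receptors, 2 of 4 other S100 genes and 1 of 4 other granule genes were higher by 2-fold or more and 0 lower. In that comparison 0 of 2 other alarmins and 0 of 2 other acute-phase genes passed 2-fold, and 1 of 6 inducing factors was higher and 3 were lower. Over all genes in it, 15.7% were higher by 2-fold or more and 5.54% lower.

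**Figure D4:**
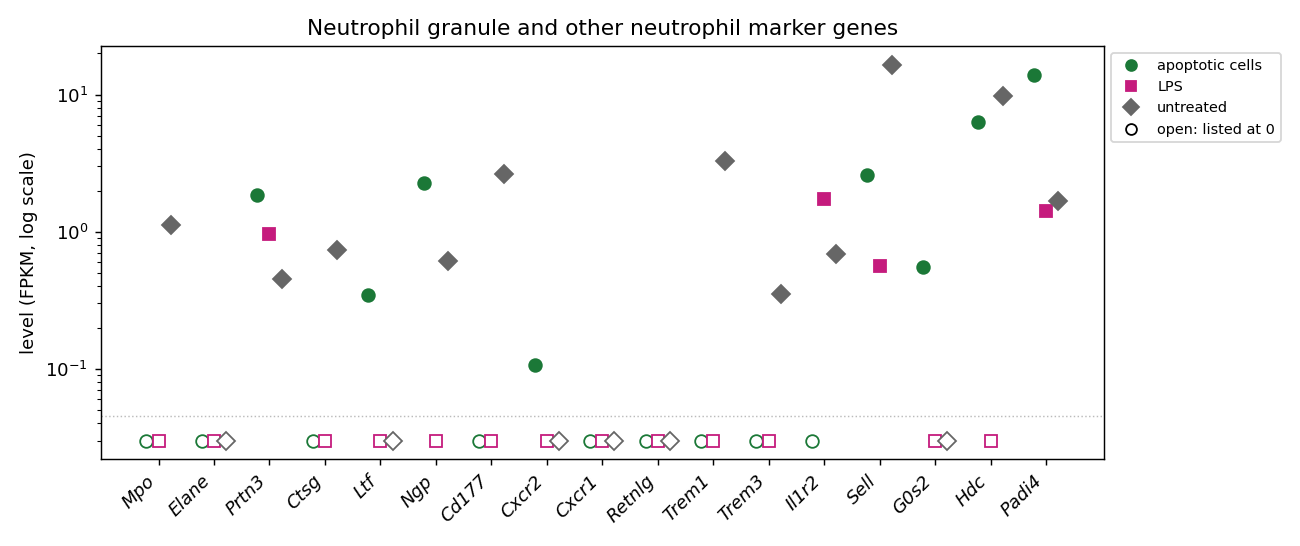
Level in FPKM (log axis) of neutrophil granule genes and other neutrophil marker genes in the libraries with apoptotic cells, with LPS and untreated; filled points are single values and open points mark a listed 0. Elane, Cxcr1 and Retnlg are listed at 0 in every library, and Padi4 stands at 13.9 FPKM with apoptotic cells.

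The labelled cell type and other cells the preparation could hold were read from markers. Of 11 macrophage markers 5 had a row, among them the growth factor receptor gene Csf1r, which had 185 FPKM with apoptotic cells, was listed at 0 with LPS and had 56.3 FPKM untreated. Of 16 neutrophil markers outside the granules 13 had a row, and they summed to 23.5 FPKM with apoptotic cells, 3.71 with LPS and 32.4 untreated. Retnlg, Cxcr1, Asprv1, Mrgpra2b and Stfa2l1 were listed at 0 in every library, and Cxcr2 reached 0.108 FPKM, with apoptotic cells alone. Padi4, which encodes a peptidylarginine deiminase of neutrophils and macrophages, had 13.9 FPKM with apoptotic cells, 1.42 with LPS and 1.68 untreated. Its highest value was with apoptotic cells, as for Mmp8. The LPS and untreated values, about 9 and 11 reads, lay close together (log2 ratio -0.15), and their order was not tested. These sums count a listed 0 as 0, which can be a failed estimate, so they do not stand for a level of the cell type. Of the 13 neutrophil markers with a row, 8 were listed at 0 with apoptotic cells, 10 with LPS and 7 untreated. The part of neutrophils in the values of the measured genes was not tested, and in bulk RNA more cells of a type and more RNA per cell cannot be told apart.

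Marker sums of other cells, taken in the same way, differed between the libraries as well. Mast cell and eosinophil markers summed to 13.8 FPKM with apoptotic cells, 10.2 with LPS and 93.0 untreated, with Epx, Prg2 and Ms4a2 listed at 0 throughout, and mesothelial and fibroblast markers to 1.81, 1.13 and 24.8 FPKM. T cell and thymocyte markers summed to 96.4 FPKM with apoptotic cells, 2.21 with LPS and 31.0 untreated, and B cell markers to 154, 117 and 86.1 FPKM. The ratios did not follow these last 2 sums: over untreated, 0 of 3 T cell and thymocyte genes with a ratio were at least 2-fold higher with apoptotic cells (Dntt -0.04, Cd3g -0.23 and Cd4 -0.68), and both B cell genes with a ratio were at least 2-fold lower (Blnk -1.09 and Cr2 -2.02). Most of these markers had no ratio over untreated. Of 7 B cell rows, 5 were listed at 0 untreated, 2 with apoptotic cells and 0 with LPS. Of 11 T cell and thymocyte rows, these were 7, 1 and 5. Cd79b and Ms4a1 had 85.6 and 28.9 FPKM with apoptotic cells and a listed 0 untreated. Rag1, the highest of the T cell list with apoptotic cells, had 41.2 FPKM there, 0.679 with LPS and a listed 0 untreated. The part of these cells in the values of the measured genes was not tested.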

How the data were processed

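Gene expression was measured by RNA sequencing in 3 libraries of mouse peritoneal macrophages, 1 per condition. The authors deposited 1 table per library with 1 value per gene symbol. The values were taken as FPKM; no unit is stated in the sources used here, but per the submitters' processing notes the tools were TopHat2 2.1.0, Cuffdiff, Cufflinks 2.2.1 and cutadapt 1.14, on build mm10, and low values in the deposited tables fall in steps that shrink with transcript length, as FPKM would. The sources used here do not name the annotation, the options or the strand. The genes, lists and thresholds were chosen with earlier results of these data known.

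Ratios were log2((FPKM + 1)/(FPKM + 1)) for genes that averaged 1 FPKM or more over the libraries and lay above 0 in both libraries compared, which understates differences of low genes; 2-fold or more was counted. No test was possible with 1 library per group. Up to 5 genes per list were named by the size of their ratio, with members listed at 0; genes given for background, such as defining markers, were added after their values were seen.

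Read equivalents came from protein-coding genes with 1 transcript of over 700 bases (GENCODE M21) and values under 1 FPKM. A common offset of 225 bases and steps of 0.31, 0.343 and 0.308 FPKM per read on 1 kb (apoptotic cells, LPS, untreated) placed 73.7%, 79% and 72.6% of genes within 0.25 read of a whole number, where 50% would by an even spread; whole reads were thus not obtained, and counts were not modelled. Counting intervals (95%, exact Clopper-Pearson form on read equivalents of the longest coding transcript) are approximate and cover counting error only. Ratios and steps were tested on simulated data. Promoters are RefSeq's (GRCm38.p6); all 8 measured genes and Saa2 matched by symbol. Python 3.11.15, numpy 2.4.6, pandas 2.3.3 and matplotlib 3.10.9 were used. Alternatives were pseudocounts of 0.1 and 5, no filter, a mean of at least 5 FPKM, 3 scalings and a listed 0 taken as a value.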

Additional observations from a re-analysis of the deposited data

How the results depend on the processing

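No paired analysis was possible because each group has 1 library. Some alternatives could not change these results. No filter, a mean of at least 5 FPKM and a listed 0 taken as a value change only which genes enter, so each ratio kept its value. A pseudocount cannot change the sign of a ratio, so only the 3 scalings could. Over all 8 alternatives, 168 of 169 ratios of the measured genes kept their sign. Of 102 that were past 2-fold, 100 stayed past it, while 10 others came to pass it. Among these, Camp for LPS over untreated (0.96) passed with a pseudocount of 0.1 (1.58) and under the 3 scalings: 1.06 by upper quartile, 1.32 by median of ratios and 1.47 by rescaling each library to 1000000. Each gave 6 higher genes in place of 5. Mmp8 for LPS over untreated lost it with a pseudocount of 5 and with median-of-ratios scaling, which left 0 genes at least 2-fold lower, and a listed 0 taken as a value gave 2, with S100a9. For apoptotic cells over LPS, a listed 0 taken as a value gave 2 higher genes. There 2 were lower with a pseudocount of 0.1 and with rescaling to a sum of 1000000, 3 with median-of-ratios and with upper-quartile scaling, and 0 with a mean of at least 5 FPKM, which removes Prok2.

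Counts over all genes moved more. For apoptotic cells over untreated, 418 were higher and 554 lower; a pseudocount of 5 gave 235 and 228, a listed 0 as a value 2682 and 1378, and a mean of at least 5 FPKM 268 lower. For LPS over untreated, 291 were higher and 896 lower; a pseudocount of 5 gave 164 and 321, median-of-ratios scaling 647 and 450, a listed 0 as a value 2605 and 1674, and a mean of at least 5 FPKM 429 lower. With apoptotic cells over LPS, 722 were higher and 255 lower; a pseudocount of 5 gave 278 and 155, a mean of at least 5 FPKM 398 and 163, median-of-ratios scaling 419 and 443, and a listed 0 as a value 1741 and 1423. Over the 6 lists, a listed 0 as a value gave 13 lower genes for apoptotic cells over untreated. For LPS over untreated it gave 16 higher and 12 lower, where a pseudocount of 5 gave 5 higher, a mean of at least 5 FPKM 6 higher and median-of-ratios scaling 3 lower. Between the treated libraries it gave 11 higher and 13 lower, and median-of-ratios scaling 4 and 5. Depth limits Camp, S100a9, Mmp8 with LPS, Saa1 and Saa2 untreated, and Prok2 with apoptotic cells and untreated, which rest on a few reads.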
